A study of Arabidopsis thaliana with 6 samples.

Results

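The 43 genes described here form the core machinery of cell division and DNA replication in Arabidopsis thaliana, out of 33602 genes in the deposited table. They were chosen by locus identifier, by a rule that uses no measured value: 7 A-type, 8 B-type and 6 D-type cyclins, 5 cyclin-dependent kinases (CDKs), 2 E2F factors, 8 replication factors (PCNA1, PCNA2 and MCM2 to MCM7), 4 CDK inhibitors, the mitotic activators CDC20.1 and CDC20.2, and the cytokinesis syntaxin KNOLLE. Earlier results of these data were nevertheless known when these members, and the gene lists set beside them below, were chosen. Seedlings of the Columbia (Col) accession were grown for 12 days on agar plates of nitrogen-free salts with 0.5% sucrose, under 16 h of light and 8 h of dark at 22 °C. Glutamine (Gln) at 5 mM was the only nitrogen source of 3 samples, and NH4NO3 at 5 mM that of the other 3. RNA came from whole seedlings, so dividing cells of the shoot and root tips are a minority of the tissue. The Gln medium held neither nitrate nor ammonium, so the supply of Gln and the absence of NH4NO3 cannot be told apart in any comparison below.

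Cells pass from G1 through DNA synthesis (S) and G2 to mitosis (M) under CDKs that act only when bound to a cyclin. D-type cyclins respond to sugars and hormones and, with CDKA;1, release E2F factors from the retinoblastoma protein. E2F factors then switch on the MCM helicase and the sliding clamp PCNA, which are needed to copy the DNA. A-type and B-type cyclins with the plant-specific CDKB kinases carry cells through G2 and mitosis, where MYB3R factors bind MSA elements (mitosis-specific activators) in their promoters. CDC20 directs the anaphase-promoting complex to destroy the cyclins, and KNOLLE fuses vesicles into the new cell plate. KRP and SIAMESE-type proteins inhibit CDKs, and in leaves the SIAMESE type favours endoreduplication, the copying of DNA without division.

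The libraries held 28654433 to 35421727 reads in genes, as implied by the values. Levels are RPKM, read numbers divided by gene length and by library size, put on one scale by TMM, a trimmed mean of log ratios between libraries. NH4NO3 replicate 2 stood apart in one technical respect: among genes with 1 to 100 implied reads, 44.9% had an even number, against 57.8% to 60.9% in the other 5 libraries. Counts of called members are therefore also given without it. Markers of photosynthetic leaf tissue were abundant and all 8 root hair markers were detected, and their values and those of meristem markers stand at the end.

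Few core cell cycle transcripts were called different between Gln and NH4NO3 seedlings, and most lay lower in Gln. With 3 libraries per group, a gene that did not pass is not shown to be unchanged. Of the 43 genes, 42 averaged 1 RPKM or more across the 6 libraries and were tested, and CYCA2;1 did not, at 0.314 to 0.683 RPKM in Gln and 0.503 to 0.832 RPKM in NH4NO3. Of those tested, 7 fell in Gln, none rose and 35 did not pass (limma across all genes tested, Benjamini-Hochberg adjusted p under 0.05). The 7 were CYCA1;1, CYCB1;2, CYCD3;1, CDC20.1, CDC20.2, MCM2 and KRP1, and their Gln means were 0.595 (CYCA1;1) to 0.770 (MCM2) of the NH4NO3 means. The share of tested members called, 16.7%, compares with 41.2% of all 19284 genes tested. In the lower direction the same 16.7% compares with 19.8% of all genes, and no member was higher, against 21.4% of all genes. The median log2 fold change (Gln minus NH4NO3, on log2(RPKM + 1)) was -0.16 over the members and -0.02 over all genes tested, and 34 of 42 members lay below 0, which is 81.0%, against 52.9% of all genes. Gln and NH4NO3 values had no overlap for 12 members (28.6%), 11 lower and 1 higher in Gln, against 53.6% of all genes.

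At an unadjusted p under 0.05 by limma, 3 members were higher in Gln, namely CYCD3;3, E2FB and SIM, and 12 were lower. None of the 3 passed after adjustment, while median ratio scaling and array weights each called 2 members higher and voom weights 1. Without NH4NO3 replicate 2 the count was 5 lower and 0 higher, and without NH4NO3 replicate 1 it was 4 lower and 0 higher. With no filter on low values, where all 33602 genes are tested, 2 members were lower and 0 higher. Since the RNA is from whole seedlings, fewer dividing cells and less transcript per dividing cell cannot be told apart. The fold scale understates changes of genes with low values, and the tested members had 52 to 2190 implied reads per library. The labels do not say whether replicates came from separate plates or days. The p-values therefore cover the scatter of these samples alone, and it may be technical.

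**Figure D1:**
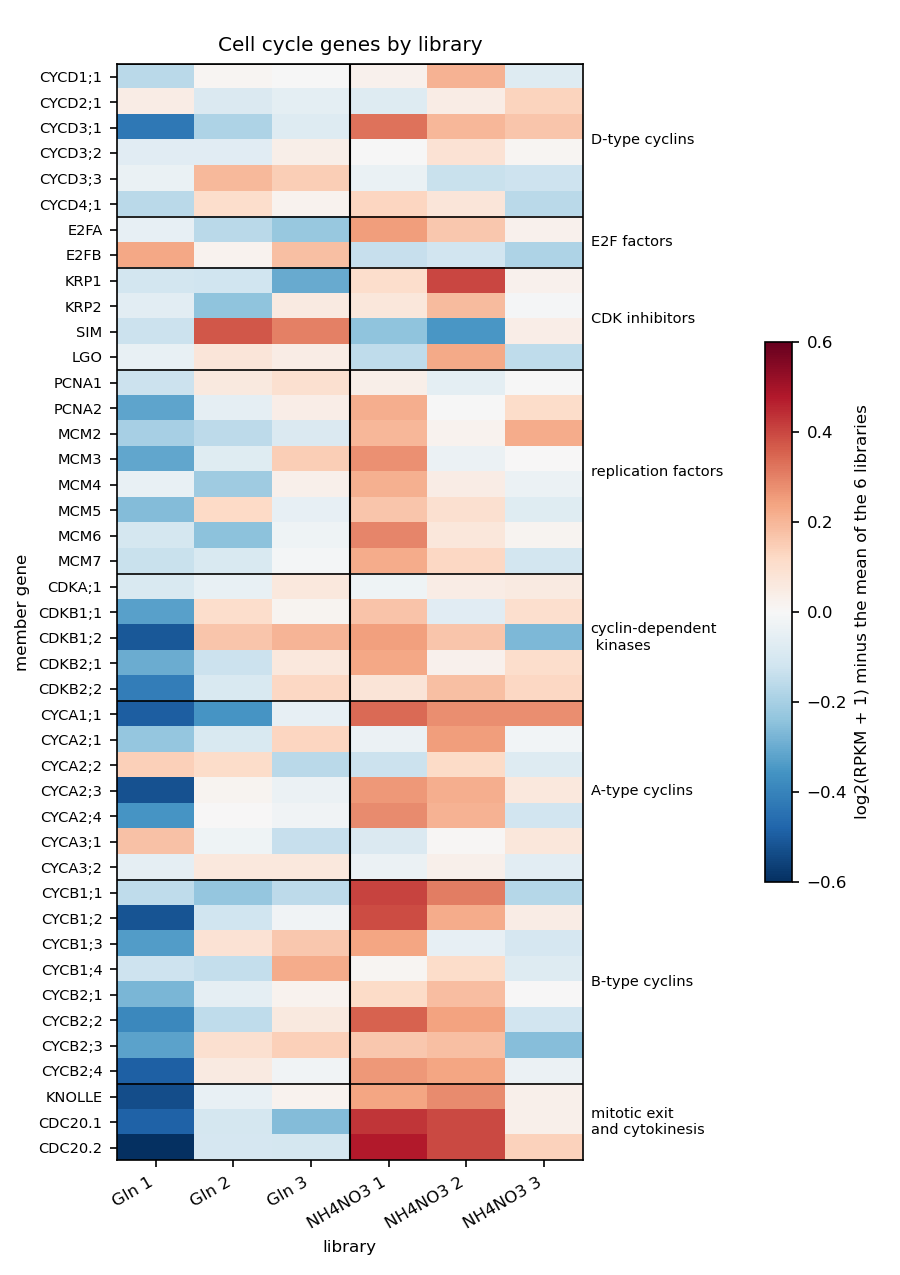
Heat map of 43 cell cycle genes (rows, by role) in the 3 Gln and 3 NH4NO3 libraries (columns); colour gives log2(RPKM + 1) minus the gene's mean over the 6 libraries, red above and blue below. Gln replicate 1 is the bluest column, lowest of its group for 31 of the 42 tested members, and NH4NO3 replicate 3 is the palest of its group, lowest there for 27.

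Among the D-type cyclins, which carry growth signals into G1, 1 of 6 fell and 5 did not pass. CYCD3;1 (AT4G34160, chromosome 4, 16357421 to 16359565, plus strand), the D cyclin best known for its response to cytokinin and sucrose, had 7.54, 9.12 and 9.91 RPKM in Gln, against 13.4, 12.2 and 11.9 RPKM in NH4NO3. Every Gln value lay below every NH4NO3 value. It averaged 8.86 ± 1.21 RPKM in Gln and 12.5 ± 0.835 RPKM in NH4NO3 (SD, n = 3 each), a log2 fold change of -0.46 ± 0.10 (SE, adjusted p = 0.0057), and it passed under all 15 alternatives. It shares 40 bases with AT4G34150 on the same strand, which averaged 317 RPKM in Gln and 299 RPKM in NH4NO3, so reads that fall there are uncertain.

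The other CYCD3 genes did not move with it past the threshold. CYCD3;2, the most abundant D cyclin, had 42.1, 42.2 and 45.4 RPKM in Gln and 44.2, 47.0 and 44.6 RPKM in NH4NO3, and the groups overlapped (log2 fold change -0.06, 95% interval -0.21 to 0.08). CYCD3;3 had 14.7, 17.5 and 16.9 RPKM in Gln, against 14.7, 13.7 and 13.8 RPKM in NH4NO3. Its log2 fold change was 0.20 (95% interval 0.02 to 0.38, adjusted p = 0.075), and it passed in 2 of 15 alternatives, with array weights (0.027) and without Gln replicate 1 (0.023), in a range up to 0.23. CYCD3;1 and CYCD3;3 thus had log2 fold changes of opposite sign, a difference that was not itself tested. CYCD1;1, CYCD2;1 and CYCD4;1 had log2 fold changes of -0.10, -0.07 and -0.03.

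The E2F genes, which encode the factors released by D cyclin kinases, had opposite signs and neither passed. E2FA had 1.24, 1.07 and 0.980 RPKM in Gln, against 1.76, 1.59 and 1.36 RPKM in NH4NO3 (log2 fold change -0.29, 95% interval -0.57 to -0.02, adjusted p = 0.081). E2FB had 2.94, 2.40 and 2.80 RPKM in Gln, against 2.05, 2.1 and 1.95 RPKM in NH4NO3 (log2 fold change 0.29, 95% interval 0.05 to 0.53, adjusted p = 0.052). The groups did not overlap for either gene. E2FA passed with voom weights on the implied reads (adjusted p = 0.045, range 0.045 to 0.21). E2FB passed in 3 of 14 alternatives, the lowest without Gln replicate 2 (adjusted p = 0.048, range 0.048 to 0.13).

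Of the 4 CDK inhibitors 1 fell and 3 did not pass. KRP1 (AT2G23430, chromosome 2, 9976590 to 9978090, minus strand), a KIP-related protein that binds CDKA;1 with D cyclins, fell to 11.5, 11.4 and 9.93 RPKM in Gln, against 13.5, 16.8 and 12.7 RPKM in NH4NO3. The groups did not overlap, and the log2 fold change was -0.35 ± 0.11 (SE, adjusted p = 0.025). Its adjusted p was 0.079 without Gln replicate 3 and 0.093 when its highest library, NH4NO3 replicate 2, was left out, and spanned 0.017 to 0.11 over all alternatives. SIM (SIAMESE), which keeps leaf hairs in endoreduplication, had 16.7, 24.1 and 22.9 RPKM in Gln and 15.4, 14.2 and 18.9 RPKM in NH4NO3. Gln replicate 1 lay within the NH4NO3 range and the other 2 Gln values lay above it (log2 fold change 0.37, 95% interval 0.05 to 0.68, adjusted p = 0.061). SIM passed in 6 of 15 alternatives, among them without Gln replicate 1 (adjusted p = 0.0079) and without NH4NO3 replicate 3 (adjusted p = 0.036). The adjusted p spanned 0.0079 to 0.24. SIM shares 338 bases with AT5G04475 on the other strand, a gene that has no value here. KRP2 and LGO, a relative of SIM that sets giant cells in sepals, had log2 fold changes of -0.17 and 0.05.

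**Figure D2:**
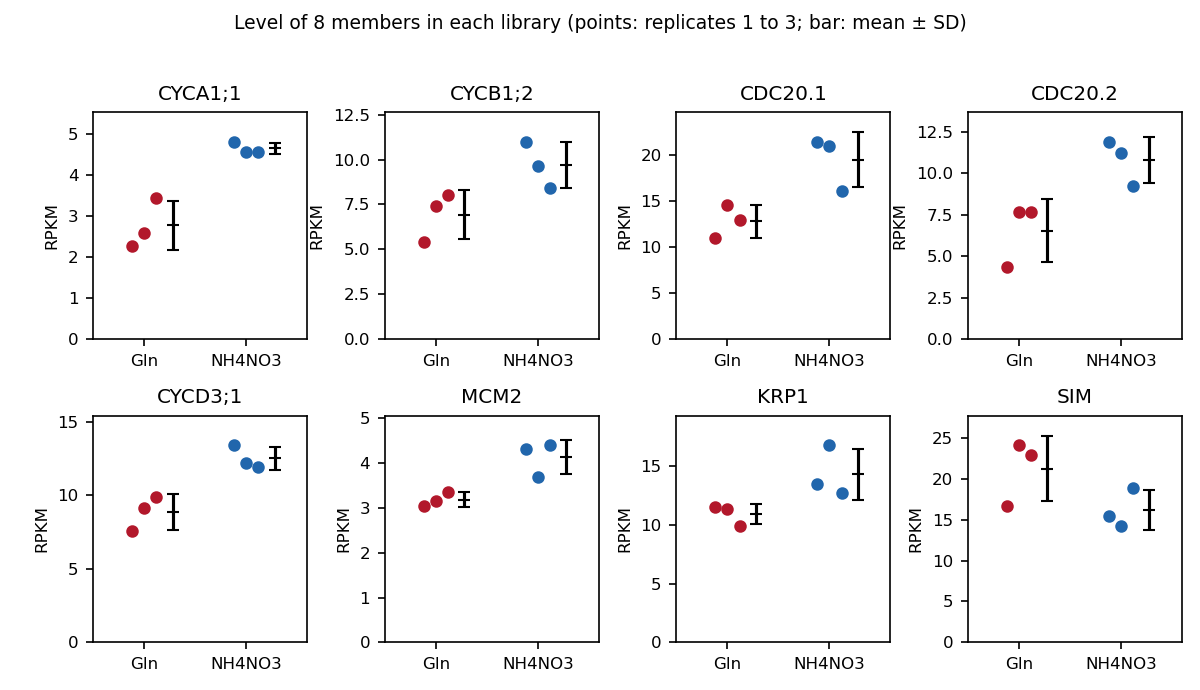
RPKM (vertical axis, from 0) of 8 members in each library, Gln in red and NH4NO3 in blue, with the mean and SD of each group in black. The 3 Gln points lie below all NH4NO3 points for CYCA1;1, CYCB1;2, CDC20.1, CDC20.2, CYCD3;1, MCM2 and KRP1, whereas SIM has 2 Gln points above all NH4NO3 points and 1 within them.

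Of the 8 replication factors, 1 fell and 7 did not pass. MCM2 (AT1G44900, chromosome 1, 16970214 to 16974753, plus strand), a subunit of the ring-shaped helicase that opens DNA at the fork, had 3.04, 3.16 and 3.36 RPKM in Gln, against 4.32, 3.70 and 4.40 RPKM in NH4NO3. The groups did not overlap (log2 fold change -0.29 ± 0.10 SE, adjusted p = 0.038). The call was lost when Gln replicate 1 (0.088), Gln replicate 2 (0.088), NH4NO3 replicate 1 (0.1) or NH4NO3 replicate 3 (0.11) was left out, and adjusted p spanned 0.016 to 0.11. MCM6 had 1.95, 1.68 and 2.12 RPKM in Gln, against 2.90, 2.33 and 2.22 RPKM in NH4NO3, again with no overlap, and did not pass (log2 fold change -0.26, 95% interval -0.53 to 0.01). The other 4 MCM genes had log2 fold changes between -0.16 and -0.13. All 6 subunits of the ring thus had fold changes below 0, and 1 passed. MCM7 shares 437 bases with AT4G02050 on the other strand, which averaged 17.9 RPKM in Gln and 13.3 RPKM in NH4NO3. PCNA2, the more abundant sliding clamp gene, had 11.5, 14.0 and 15.0 RPKM in Gln and 17.1, 14.5 and 15.8 RPKM in NH4NO3 (log2 fold change -0.22, 95% interval -0.45 to 0.01), and PCNA1 lay at 0.02 (95% interval -0.17 to 0.21). PCNA2 shares 279 bases with AT2G29560 on the other strand, which averaged 15.6 RPKM in Gln and 15.8 RPKM in NH4NO3.

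E2F factors are known to bind TTTCCCGC and close variants, so the 250 bases before the annotated start of each gene were searched on both strands for TTTCCCGC, TTTGGCGC, TTTCGCGC and TTTGCCGC (RefSeq, TAIR10.1). A match stood in 5 of the 10 S-phase members, all 5 among the 6 MCM genes, and in 1.41% of 27443 nuclear protein-coding genes. The sixth member with a match was the G1 cyclin CYCD3;3, whose fold change had the opposite sign (0.20) and did not pass. None of the 20 G2 and mitosis members had one. The matches are printed to set the MCM genes beside CYCD3;3. Capitals mark the match, and each line reads 5′ to 3′ on the gene's strand.
MCM2, chr1:16970188-16970213, plus strand: ttggcgccaataTTTCCCGCctaatc
MCM3, chr5:18773857-18773888, minus strand: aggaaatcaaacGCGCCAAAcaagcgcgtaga
MCM4, chr2:7130745-7130776, minus strand: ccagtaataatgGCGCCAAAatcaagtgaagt
MCM5, chr2:3527501-3527531, minus strand: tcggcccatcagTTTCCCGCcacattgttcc
MCM6, chr5:18010694-18010725, minus strand: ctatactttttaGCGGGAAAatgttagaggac
CYCD3;3, chr3:18566919-18566950, minus strand: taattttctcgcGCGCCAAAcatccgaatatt
The match of MCM2, the member that fell, ends 7 bases before the annotated start. That of MCM5, whose letters are the same and which did not pass (log2 fold change -0.13), ends 12 bases before it. A match describes these letters and not a bound factor.

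None of the 5 CDK genes passed. CDKA;1, the kinase used throughout the cycle, had 34.2, 35.3 and 38.2 RPKM in Gln and 35.8, 37.6 and 37.9 RPKM in NH4NO3. Its log2 fold change was -0.05, with a 95% interval of -0.20 to 0.10. CDKB2;1, a kinase made in G2 and mitosis, had 10.2, 11.6 and 13.4 RPKM in Gln and 15.2, 13 and 13.8 RPKM in NH4NO3 (log2 fold change -0.25, adjusted p = 0.081). Its partner in the same class, CDKB2;2, had 7.48, 9.58 and 11.3 RPKM in Gln and 10.9, 11.8 and 11.3 RPKM in NH4NO3 (log2 fold change -0.25, adjusted p = 0.13). Both passed without Gln replicate 3, the highest Gln library for each, with adjusted p of 0.023 (range 0.023 to 0.23) and 0.025 (range 0.025 to 0.39). CDKB1;1 and CDKB1;2, which also act in the stomatal lineage, lay at -0.14 and -0.09.

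Among the A-type cyclins 1 of 6 tested fell. CYCA1;1 (AT1G44110, chromosome 1, 16774765 to 16777352, minus strand), a cyclin expressed at the entry to mitosis, had 2.27, 2.60 and 3.45 RPKM in Gln, against 4.82, 4.58 and 4.58 RPKM in NH4NO3. The NH4NO3 libraries were close to each other and all above the Gln libraries. It averaged 2.77 ± 0.606 RPKM in Gln and 4.66 ± 0.140 RPKM in NH4NO3 (SD, n = 3 each), a log2 fold change of -0.60 ± 0.12 (SE, adjusted p = 0.0038), and it passed in all 14 alternatives that tested it. CYCA2;3, which restrains endoreduplication with CDKB1;1, had 3.87, 6.07 and 5.84 RPKM in Gln, against 7.37, 7.14 and 6.32 RPKM in NH4NO3. The groups did not overlap, and it did not pass (log2 fold change -0.36, adjusted p = 0.065), except without Gln replicate 2 (0.043) and with voom weights (0.043), in a range up to 0.23. CYCA2;3 shares 48 bases with AT1G15580 on the other strand, which averaged 14.3 RPKM in Gln and 4.29 RPKM in NH4NO3. The S-phase cyclin CYCA3;2, the most abundant A cyclin, had 14.1, 15.4 and 15.4 RPKM in Gln and 14.3, 15.0 and 14.0 RPKM in NH4NO3 (log2 fold change 0.04, 95% interval -0.12 to 0.21). CYCA2;2 and CYCA3;1 lay at 0.06 and 0.01, and CYCA2;4 at -0.25.

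All 8 B-type cyclins, the mitotic cyclins, had log2 fold changes below 0, and 1 passed. CYCB1;2 (AT5G06150, chromosome 5, 1859279 to 1861703, minus strand), the most abundant of them, had 5.39, 7.40 and 8.00 RPKM in Gln, against 11.0, 9.65 and 8.42 RPKM in NH4NO3. The highest Gln value lay just below the lowest NH4NO3 value (log2 fold change -0.44 ± 0.14 SE, adjusted p = 0.029). The call was lost when Gln replicate 1 (0.074), NH4NO3 replicate 1 (0.1) or NH4NO3 replicate 2 (0.068) was left out, and adjusted p spanned 0.016 to 0.15. CYCB1;1, the usual reporter of dividing cells, had 2.02, 1.86 and 2.01 RPKM in Gln and 3.44, 3.15 and 1.98 RPKM in NH4NO3. NH4NO3 replicate 3 lay within the Gln range, and without it the log2 fold change of -0.36 (adjusted p = 0.082) became -0.53 with an adjusted p of 0.0092, in a range from 0.0092 to 0.25. CYCB2;2 had 3.54, 4.33 and 5.17 RPKM in Gln and 6.59, 6.0 and 4.48 RPKM in NH4NO3, and it also passed only without NH4NO3 replicate 3 (0.037, range 0.037 to 0.32). The other 5 B cyclins ranged from -0.31 for CYCB2;4 to -0.03 for CYCB1;4. The sign was not stable for CYCB1;3, CYCB1;4 and CYCB2;3, whose log2 fold changes reached 0.10, 0.03 and 0.09 among the alternatives.

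MSA elements hold the core CNAACGG, where N is any base, and the same 250-base windows were searched for it on both strands. A match stood in 7 of the 20 G2 and mitosis members, or 35.0%, and in 4.5% of the 27443 genes. The 7 were CYCA1;1 and 6 of the 8 B cyclins, and no S-phase, G1 or inhibitor member had one. No member held both motifs. The windows with more than 1 match are printed, called members first, with the core in capitals and each line 5′ to 3′ on the gene's strand.
CYCA1;1, chr1:16777516-16777569, minus strand: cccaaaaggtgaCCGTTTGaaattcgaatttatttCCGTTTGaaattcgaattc
CYCB1;2, chr5:1861704-1861860, minus strand: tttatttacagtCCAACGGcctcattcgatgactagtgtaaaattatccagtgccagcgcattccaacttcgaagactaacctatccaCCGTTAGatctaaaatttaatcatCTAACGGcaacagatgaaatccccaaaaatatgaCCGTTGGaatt
CYCB1;3, chr3:3627296-3627349, minus strand: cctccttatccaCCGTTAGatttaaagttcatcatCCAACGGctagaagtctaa
CYCB2;2, chr4:16901412-16901488, plus strand: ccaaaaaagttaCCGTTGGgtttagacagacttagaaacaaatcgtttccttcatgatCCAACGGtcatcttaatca
CYCB1;2 had 4 matches, the most of any member, and fell. CYCB1;3 had 2, as CYCA1;1 did, and lay at -0.06 with overlapping groups. CDC20.1 and CDC20.2, which fell, had no match in this window, nor did KNOLLE.

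The genes that act at the end of mitosis had the lowest median log2 fold change of the role groups, -0.57, which is the value of CDC20.1. Of these 3 genes 2 were called lower, both of the CDC20 pair, beside 19.8% of all genes tested. CDC20.1 (AT4G33270, chromosome 4, 16044169 to 16046937, minus strand) had 10.9, 14.5 and 12.9 RPKM in Gln, against 21.4, 20.9 and 16.0 RPKM in NH4NO3 (log2 fold change -0.57 ± 0.13 SE, adjusted p = 0.0059). Its neighbour CDC20.2 (AT4G33260, chromosome 4, 16041006 to 16043549, minus strand) had 4.32, 7.67 and 7.63 RPKM in Gln, against 11.9, 11.2 and 9.22 RPKM in NH4NO3 (log2 fold change -0.67 ± 0.18 SE, adjusted p = 0.014). In both genes every Gln value lay below every NH4NO3 value, with Gln replicate 1 the lowest. The genes lie 619 bases apart, and their coding sequences are identical at 1310 of 1344 aligned bases (97.5%), with a longest identical stretch of 314 bases. Their deposited multi-read ratios of 0.212 and 0.211 are the only ones above 0.1 among the members, so the split of reads between them is uncertain, and they are not independent of each other. CDC20.2 missed the threshold without NH4NO3 replicate 1 (0.053) and with no filter on low values (0.12), with a lowest adjusted p of 0.0051. Among its 15 alternatives, CDC20.1 missed it only with no filter (0.062).

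KNOLLE, the syntaxin of the cell plate, had 14.9, 21.3 and 22.3 RPKM in Gln, against 26.1, 27.0 and 22.5 RPKM in NH4NO3. The groups touched without overlapping, and it did not pass (log2 fold change -0.37, 95% interval -0.68 to -0.06, adjusted p = 0.056). It passed in 4 of 15 alternatives, the lowest without Gln replicate 3 (0.029), and reached 0.23 in the others. KNOLLE shares 464 bases with AT1G08550 on the other strand, which had 24.8 RPKM in Gln and 33.6 RPKM in NH4NO3 on average and fell (log2 fold change -0.42, adjusted p = 0.0052). Whether reads were counted by strand is not given in the sources used here, so the value of KNOLLE is uncertain there.

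**Figure D3:**
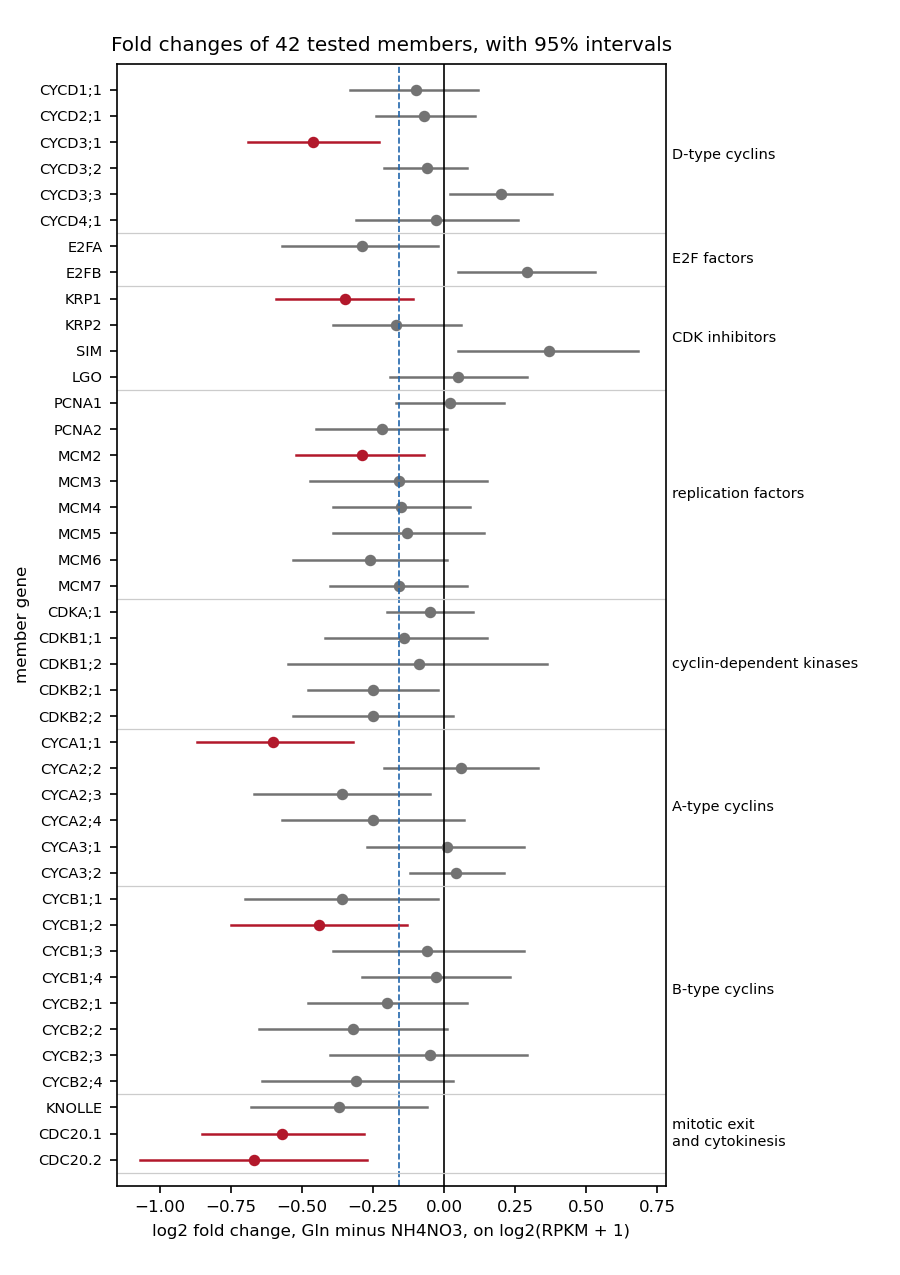
Log2 fold change (Gln minus NH4NO3, horizontal axis, on log2(RPKM + 1)) with 95% interval for the 42 tested members, by role; red marks the 7 called genes, grey the rest, the solid line 0 and the dashed line the members' median of -0.16. All B cyclins, CDKs, and mitotic exit and cytokinesis genes lie left of 0, and the values furthest right are SIM, E2FB and CYCD3;3, none of which passed.

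Grouped by phase, the members of G2 and mitosis lay further below 0 than those of G1 or S. The 19 tested G2 and mitosis members had a median log2 fold change of -0.25, with 18 below 0 and 4 called. The 10 S-phase members had a median of -0.15 with 1 called, and the 8 G1 members -0.07 with 1 called. The difference between these medians was not tested. Among all genes tested, 19.8% were called lower and 52.9% lay below 0. The 4 calls among 19 G2 and mitosis members are near the first of these shares. Summed over all 20 of its genes, the level of G2 and mitosis transcripts was 93, 125 and 131 RPKM in Gln, against 160, 155 and 132 RPKM in NH4NO3. Gln replicate 3 and NH4NO3 replicate 3 were almost equal. KNOLLE, CDC20.1 and CDC20.2, whose values are uncertain as given above, weigh in this sum. Together they averaged 38.8 of its 116 RPKM in Gln and 55.4 of its 149 RPKM in NH4NO3. The S-phase sum was 54.3, 60.4 and 63.1 RPKM in Gln, against 68.5, 62.6 and 62.3 RPKM in NH4NO3, and the G1 sum was 90.4, 94.3 and 98.1 RPKM in Gln, against 98.3, 101 and 96.9 RPKM in NH4NO3. Both overlapped between the groups.

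The members varied together within each group. Gln replicate 1 was the lowest Gln library for 31 of 42 tested members (73.8%), where it was the lowest for 36.1% of all genes tested. NH4NO3 replicate 3 was the lowest NH4NO3 library for 27 of 42 (64.3%), against 33.5% of all genes. NH4NO3 replicate 1 was the highest of its group for 24 (57.1%), against 34.6%, and Gln replicate 3 for 22 (52.4%), against 35.0%. The median log2 fold change of the members was -0.11 without Gln replicate 1 and -0.21 without NH4NO3 replicate 3. The lower calls numbered 5 and 8 in those fits, and the higher calls 2 and 1.

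**Figure D4:**
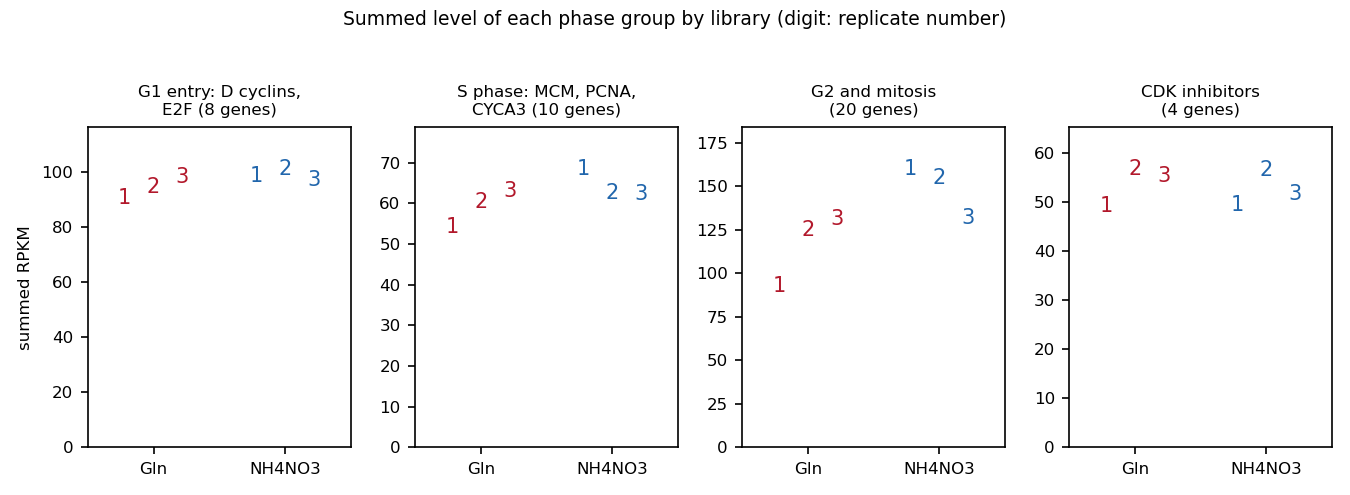
Summed RPKM (vertical axis, from 0) of the members of each phase group in each library; each digit is a replicate number, Gln in red and NH4NO3 in blue. For G2 and mitosis the Gln libraries lie at 93 to 131 and the NH4NO3 libraries at 132 to 160, while for G1, S phase and the CDK inhibitors the groups overlap.

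The wider machinery was taken from lists of genes outside the 43 members, read against the 21.4% higher and 19.8% lower of all genes. These lists were chosen with earlier results of these data known. Of 27 tested genes of origin licensing and the replication fork, 3 fell (11.1%) and none rose. ORC5, a subunit of the origin recognition complex, had 1.91, 3.02 and 2.11 RPKM in Gln, against 4.28, 4.33 and 4.59 RPKM in NH4NO3 (log2 fold change -0.71 ± 0.13 SE, adjusted p = 0.0021), and passed under all 14 alternatives that tested it. PSF3, of the GINS complex, had 4.38, 4.40 and 5.77 RPKM in Gln, against 5.97, 6.53 and 6.43 RPKM in NH4NO3 (log2 fold change -0.33, adjusted p = 0.035), and passed in 8 of 15 alternatives. PSF3 shares 252 bases with AT1G19070 on the same strand, which averaged 1.88 RPKM in Gln and 3.21 RPKM in NH4NO3, so its level is uncertain. ORC1B, another origin recognition subunit, had 1.40, 1.29 and 1.24 RPKM in Gln, against 2.20, 1.64 and 1.90 RPKM in NH4NO3 (log2 fold change -0.33, adjusted p = 0.0496), and passed in 2 of 14. The count was 1 in each fit that left out Gln replicate 1 or 2 or any NH4NO3 replicate, and 5 with voom weights. The remaining 24, among them TSO2, RNR1, POL2A and CDC45, did not pass.

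Of 19 tested genes of mitosis and cytokinesis, 4 fell (21.1%, near the share of all genes) and 1 rose (5.26%). PLE (PLEIADE, MAP65-3), which bundles microtubules in the midzone of the phragmoplast, had 2.20, 2.51 and 2.89 RPKM in Gln, against 5.01, 4.51 and 4.26 RPKM in NH4NO3 (log2 fold change -0.66 ± 0.11 SE, adjusted p = 0.0011), and passed in all 14 alternatives that tested it. The spindle factor TPX2 had 2.34, 2.60 and 2.83 RPKM in Gln, against 4.17, 3.79 and 3.1 RPKM in NH4NO3 (log2 fold change -0.38, adjusted p = 0.027). EDE1, a microtubule-associated protein, had 1.43, 1.45 and 1.56 RPKM in Gln, against 2.35, 1.88 and 2.33 RPKM in NH4NO3 (log2 fold change -0.36, adjusted p = 0.029). The checkpoint gene BUB3.1 had 5.25, 5.93 and 5.61 RPKM in Gln, against 8.29, 6.83 and 6.64 RPKM in NH4NO3 (log2 fold change -0.32, adjusted p = 0.028). TPX2, EDE1 and BUB3.1 passed in 8 of 14, 9 of 14 and 10 of 15 alternatives. KEULE, the Sec1 partner of KNOLLE, rose to 40.0, 37.5 and 36.0 RPKM in Gln, against 32.6, 30.1 and 32.2 RPKM in NH4NO3 (adjusted p = 0.015). Its adjusted p was 0.059 after quantile normalization and 0.069 without NH4NO3 replicate 2, its highest over all alternatives. It was named after its values were seen, as the one gene of the list that rose. The count of lower genes was 1 without Gln replicate 1 and 1 without NH4NO3 replicate 1. It was 2 with no filter on low values or with the replicate number as a block, and spanned 1 to 6 over all alternatives.

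Of 19 tested inhibitors of CDKs and regulators of endoreduplication outside the members, 4 were higher (21.1%) and 3 lower (15.8%), near the shares of all genes. KRP6 had 17.7, 16.3 and 15.1 RPKM in Gln, against 10.2, 10.7 and 11.3 RPKM in NH4NO3 (log2 fold change 0.56 ± 0.08 SE, adjusted p = 0.00054). AT5G02420, annotated as an SMR3-like CDK inhibitor, had 10.8, 14.0 and 14.9 RPKM in Gln, against 7.94, 7.58 and 9.24 RPKM in NH4NO3 (log2 fold change 0.61 ± 0.12 SE, adjusted p = 0.0031). KRP4 went the other way, with 9.40, 8.81 and 8.16 RPKM in Gln, against 12.8, 13.3 and 11.6 RPKM in NH4NO3 (log2 fold change -0.47 ± 0.08 SE, adjusted p = 0.0019). KRP6, KRP4 and AT5G02420 passed under all 15 alternatives, and none of the 3 pairs of groups overlapped. KRP4 shares 926 bases with AT2G32720 on the other strand, which averaged 32.7 RPKM in Gln and 36.5 RPKM in NH4NO3, so its own level is uncertain.

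The activators of the anaphase-promoting complex also differed in sign. CCS52B, which acts in mitotic cells, fell to 5.77, 8.27 and 7.72 RPKM in Gln, against 11.5, 11.0 and 9.60 RPKM in NH4NO3 (log2 fold change -0.51 ± 0.12 SE, adjusted p = 0.0086), and 190 of its bases overlap AT5G13850, at a mean of 119 RPKM. CCS52A2 and CCS52A1, which promote endoreduplication, lay at 0.35 and 0.28 (adjusted p = 0.022 and 0.0499). CCS52A2 passed in 9 of 14 alternatives and was lost without Gln replicate 2, Gln replicate 3, NH4NO3 replicate 2 or NH4NO3 replicate 3 (up to 0.077). CCS52A1 passed in 9 of 15, and NH4NO3 replicate 3 was the only library it could lose and still pass (up to 0.15). They were named after their values were seen, because they activate the same complex, and so was SPO11-3, the third gene of the list that fell (log2 fold change -0.34, adjusted p = 0.013). SPO11-3 shares 116 bases with AT5G02830 on the other strand, which averaged 2.65 RPKM in Gln and 4.15 RPKM in NH4NO3. In each fit that left out Gln replicate 2, Gln replicate 3 or NH4NO3 replicate 2, the count of higher genes on this list was 2.

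Of 12 other tested cyclins, CDKs and partners, CYCD6;1 was the only one called and was lower in Gln. It had 0.598, 0.945 and 1.54 RPKM in Gln, against 1.71, 2.39 and 3.27 RPKM in NH4NO3 (log2 fold change -0.77, adjusted p = 0.014). Its adjusted p was 0.057 without NH4NO3 replicate 3 and 0.098 with no filter on low values. The count of lower genes on this list was 2 without Gln replicate 2 or with a pseudocount of 5 RPKM, and 0 with no filter on low values. CYCD6;1 shares 847 bases with AT4G03260, at a mean of 34.1 RPKM, and is therefore uncertain. Of 13 transcriptional regulators of the cycle, 1 rose and 1 fell. MYB3R5, a repressor of mitotic genes, had 2.91, 3.54 and 3.08 RPKM in Gln, against 2.09, 2.5 and 1.86 RPKM in NH4NO3 (log2 fold change 0.41, adjusted p = 0.019). TSO1, a subunit of a DREAM-type complex, had 8.93, 10.9 and 9.70 RPKM in Gln, against 12.7, 11.7 and 13.1 RPKM in NH4NO3 (log2 fold change -0.32, adjusted p = 0.017). RBR1, the retinoblastoma protein gene, and MYB3R4, an activator of mitotic genes, lay at -0.17 and -0.18 and did not pass. The MYB3R5 call was lost without Gln replicate 2 (0.073), NH4NO3 replicate 1 (0.051) or NH4NO3 replicate 3 (0.067), and that of TSO1 without Gln replicate 1 (0.052) or NH4NO3 replicate 3 (0.062). With no filter on low values both calls were lost (0.069 for MYB3R5 and 0.058 for TSO1).

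Markers of tissues that hold dividing cells were read from the same fit, beside 21.4% higher and 19.8% lower of all genes. The marker lists were chosen with earlier results of these data known. Of 8 tested markers of the shoot meristem and leaf primordia, 4 fell (STM, CLV1, ANT and GRF5). The count was 2 without NH4NO3 replicate 2, and 1 with no filter on low values or with the filter at 5 RPKM. The summed level of all 12 was 33.3 to 36.6 RPKM in Gln and 43.8 to 48.3 RPKM in NH4NO3. The largest term of that sum was CLV1. KNAT1, KNAT2, AN3 and GRF1 did not pass, with log2 fold changes of 0.08, -0.03, -0.17 and -0.25. CLV1, a receptor kinase of the meristem, had 10.6, 9.33 and 9.92 RPKM in Gln, against 15.5, 13.8 and 15.5 RPKM in NH4NO3 (log2 fold change -0.54, adjusted p = 0.00062). The defining stem cell markers WUS and CLV3 were at or near 0, at no more than 0.157 RPKM in any Gln library and 0.112 RPKM in any NH4NO3 library. Of 3 tested root meristem markers none passed, although 1 was lower without Gln replicate 2 and 1 with voom weights, with sums of 13.1 to 16.5 RPKM in Gln and 13.4 to 17.1 RPKM in NH4NO3 over all 7, and PLT1, PLT2, BBM and WOX5 stayed below 1 RPKM in every library. In the stomatal lineage, a dividing cell population of the young leaf, 2 of 4 fell (SPCH and TMM). The count was 1 without Gln replicate 1, Gln replicate 2 or NH4NO3 replicate 3. It was also 1 with no filter on low values, the filter at 5 RPKM or the replicate number as a block. The summed level was 7.97 to 11.5 RPKM in Gln and 14.7 to 16.1 RPKM in NH4NO3.

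Markers of root hairs and of photosynthetic leaf tissue follow, again beside 21.4% higher and 19.8% lower of all genes. All 8 root hair markers rose, with sums of 88 to 117 RPKM in Gln and 38.5 to 42.9 RPKM in NH4NO3. Of 10 photosynthesis markers 8 fell, with sums of 34656 to 42125 RPKM in Gln and 43120 to 50460 RPKM in NH4NO3, whereas 5 fell and 1 rose after quantile normalization and 2 fell with no filter on low values. The part of these markers' tissues in the cell cycle results was not tested.

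**Figure D5:**
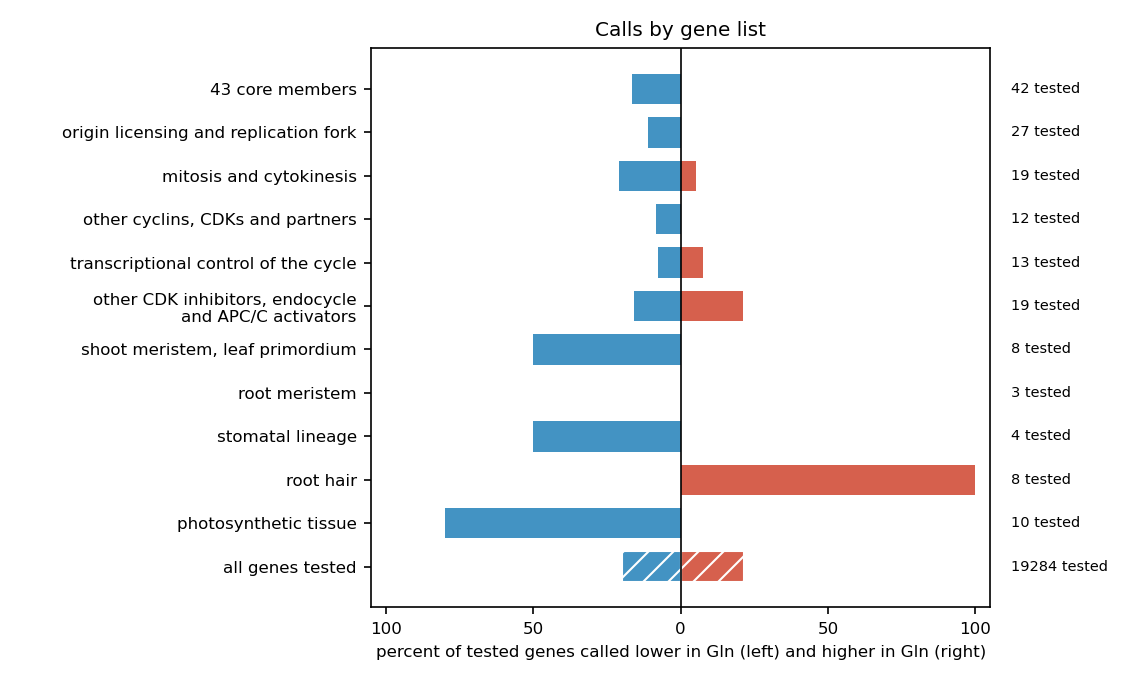
Percent of tested genes called lower (blue, left) and higher (red, right) in Gln for the 43 members, 5 lists of other cell cycle genes, 5 marker lists and all genes tested (hatched). The members have 16.7% lower and no higher calls, beside 19.8% and 21.4% for all genes, while all root hair markers are higher.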

How the data were processed

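RNA from whole seedlings was sequenced from 3 Gln and 3 NH4NO3 samples, with an Illumina TruSeq kit per the labels' protocols. The authors deposited 1 table of RPKM values, scaled by TMM per the file name. Gene lengths are deposited beside them, with a multi-read ratio, whose header calls it a maximum: the authors' fraction, between 0 and 1, with no definition. Per the submitters' processing notes, TAIR10 and SAMtools had some part, with no role given. Aligner, counter and annotation: not given in the sources used here. Multiplying a value by gene length returned whole reads plus 0.5, in steps fixed for each library: 98.1% to 98.8% of values up to 20 reads were whole within 0.05.

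The 19284 genes averaging 1 RPKM or more entered a 2-sided limma-trend test (limma 3.58.1, R 4.3.3) on log2(RPKM + 1), with Benjamini-Hochberg adjustment over all of them. The script was tested on simulated data. The members and lists were chosen with earlier results of these data known. Values by library are given for called members, for the most abundant of each role, and for members whose groups do not overlap or whose call changed under an alternative; up to 4 called genes are named per companion list, and KEULE, CCS52A1, CCS52A2 and SPO11-3 were added after their values were seen. Positions are those of RefSeq TAIR10.1, where all 43 loci matched. Gene names are those in common use, and some differ from the RefSeq symbol, among them KRP1 (ICK1), KNOLLE (SYP111) and MCM7 (PRL). Median squared differences between replicates were 3.40 to 6.56 times those of counting error, so none was treated as a copy.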

Additional observations from a re-analysis of the deposited data

How the results depend on the processing

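The counts over all genes stayed within 1.5 times of 4126 higher and 3816 lower, and the members' median of -0.16 stayed between -0.23 and -0.08, in every alternative. The number of lower members, 7, was 2 with no filter on low values, 10 with voom weights, and 4 to 9 when single libraries were left out. The number of higher members, 0, was 1 with a pseudocount of 5 RPKM, 1 with voom weights on the implied reads, 2 with median ratio scaling, 2 with array weights, and 0 to 2 when single libraries were left out. With the replicate number as a block, 5 members were lower and 1 was higher. Same-numbered libraries did not deviate together (correlations of -0.073, -0.10 and -0.0087), so the numbers were not taken as pairs. For 17 members that were called or whose call changed, no alternative turned the direction: 211 values kept their side of the threshold, 22 passed newly and 17 no longer passed. The cause was not tested. Some of the other members changed sign, among them CYCB1;3 (-0.15 to 0.10) and CDKB1;2 (-0.25 to 0.14). Members with a mean under 5 RPKM have no value under the filter at 5 RPKM. The 3 libraries per group and, for the least abundant members, 52 reads in a library limit the precision. Alternatives for the companion lists were chosen after seeing the data.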
